A study of Mus musculus with 3 samples.

Results

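The 9 genes Scgb1a1, Scgb3a1, Scgb3a2, Wfdc2, Agr2, Fcgbp, Muc5b, Bpifa1 and Ltf encode secreted or secretory-pathway proteins of airway and mucous epithelium, and were followed here in epithelial cells of the aged thymus. They are 9 of the 32293 features counted, and were chosen by their UMI counts in these same libraries (share of positive barcodes, concentration in few barcodes and co-detection), so these levels are given as a description. An epithelial barcode was a called cell barcode with at least 2 unique molecular identifiers (UMIs) of Epcam, the epithelial adhesion molecule, and 0 UMIs of Pecam1 (endothelial) and Pdgfra (fibroblast). The female library of the Foxn1 lineage trace (Foxn1Lin female) had 408 such barcodes of 8616 called, the male one (Foxn1Lin male) 436 of 3583, and wild type male 917 of 5478. Values given in threes below follow this order.

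All 3 libraries held CD45- thymic stromal cells of untreated 20-month C57BL/6 mice, and each was the only library of its genotype and sex (n = 1). In the lineage trace, Cre expressed from Foxn1, the transcription factor of thymic epithelial cells (TEC), releases a tdTomato reporter at Rosa26, which then marks the cell and its progeny whatever their present Foxn1 level. The wild type library carries no reporter. Each library pooled 10 to 15 thymi according to the labels, so no value belongs to an animal, and the spread between mice is unknown. The shared protocol text speaks of female mice although 2 libraries are labelled male, and the wild type library is CD45- in its title but CD45-PECAM1+ in its cell type field. Differences between libraries were not tested, since every group is a single library, and all intervals below are 95% intervals for counting error only.

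Secretoglobins are small proteins that club cells, the secretory cells of the bronchioles, release in large amounts, whereas goblet cells make gel-forming mucins and the proteins that fold and accompany them. In the thymus, medullary TEC (mTEC) transcribe many genes of peripheral tissues, in part under the control of Aire, and display them to developing T cells. Some mTEC, called mimetic cells, take on a wider programme of a peripheral cell type, and goblet TEC are among the subsets named in this way.

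Markers of TEC were checked in the epithelial barcodes. H2-Aa, an MHC class II gene, was detected in 90.4%, 92.0% and 94.2% of them in the 3 libraries, Krt8 in 92.9%, 93.8% and 95.0%, and Krt5, a keratin of part of the mTEC, in 38.5%, 51.4% and 53.5%. In barcodes with at least 2 Pdgfra UMIs and 0 of Epcam and Pecam1 (fibroblast barcodes) Krt8 was found in 17.5%, 6.48% and 10.4%, Krt5 in 2.94%, 2.00% and 2.41%, and H2-Aa in 27%, 21.9% and 35.4%. Markers of other cells were also detected in epithelial barcodes. Pth, the parathyroid hormone gene, was found in 261, 41 and 126 of them, with 13302, 17368 and 42114 UMIs. Gcm2, the parathyroid factor, was found in 4, 2 and 2, and Ptprc (CD45) in 48, 9 and 23. How many of these barcodes held such cells was not tested. The epithelial barcodes had a median of 11138, 12669.5 and 16836 UMIs and fibroblast barcodes 7335.5, 9419.5 and 8243.5. Between pairs of libraries 3 to 14 called barcodes had the same sequence, and 0 epithelial barcodes did.

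Upstream sequence from RefSeq on GRCm38.p6 is shown for the 3 members whose 250 bases before the RefSeq start lay wholly outside the gene in RefSeq and GENCODE, since 2 of them, Scgb3a1 and Bpifa1, reached the highest counts in single barcodes and the other, Fcgbp, was the most widespread. Scgb1a1, Scgb3a2 and Muc5b had no entry. Capitals mark the word TGTTTAC or its variants, TGTTTGC on one hand and the word TATTTAC on the other, which forkhead factors such as Foxa1 and Foxa2 can bind, and TATAAA, a core promoter word, on either strand.
Scgb3a1, chr11:49663345-49663594, plus strand: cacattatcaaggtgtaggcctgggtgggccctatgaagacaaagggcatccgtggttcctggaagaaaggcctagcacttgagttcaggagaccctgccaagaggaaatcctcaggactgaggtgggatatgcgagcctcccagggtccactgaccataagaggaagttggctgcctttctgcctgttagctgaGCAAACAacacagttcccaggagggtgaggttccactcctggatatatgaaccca
Bpifa1, chr2:154142630-154142879, plus strand: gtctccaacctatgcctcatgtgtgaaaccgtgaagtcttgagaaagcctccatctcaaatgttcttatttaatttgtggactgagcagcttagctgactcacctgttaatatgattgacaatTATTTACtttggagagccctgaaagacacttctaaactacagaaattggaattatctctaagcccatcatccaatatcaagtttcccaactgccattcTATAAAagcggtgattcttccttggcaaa
Fcgbp, chr7:28070986-28071235, plus strand: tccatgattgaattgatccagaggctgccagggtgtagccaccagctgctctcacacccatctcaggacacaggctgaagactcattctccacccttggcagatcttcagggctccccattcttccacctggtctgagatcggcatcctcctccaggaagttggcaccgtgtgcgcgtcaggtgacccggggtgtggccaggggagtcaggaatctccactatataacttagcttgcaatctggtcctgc
The Scgb3a1 window held TGTTTGC on the minus strand, read on the printed strand as its reverse complement, 55 bases before the window's end. The Bpifa1 window held TATTTAC 127 and TATAAA 29 bases before the end, both on the plus strand, and the Fcgbp window held none of these words. Of 27025 such windows, 9.65% held at least 1 of the 3 forkhead words and 13.0% held TATAAA, so the matches describe these windows and identify no site.

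The members fell into 2 patterns. Fcgbp and Wfdc2 were detected in large parts of the epithelium, whereas the other 7 members were found in few barcodes, many of them with 1 or 2 UMIs and a few with up to 2786.

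Fcgbp (chromosome 7, 28071236 to 28120862, plus strand), a large mucus protein named for its binding of the IgG Fc part, was positive in 260 of 408 epithelial barcodes of Foxn1Lin female (63.7%, 58.9 to 68.4), 235 of 436 of Foxn1Lin male (53.9%, 49.1 to 58.7) and 518 of 917 of wild type male (56.5%, 53.2 to 59.7). A positive barcode held a mean of 22.7, 23.2 and 32.1 UMIs and a median of 10, 11 and 15. The highest barcode held 250, 251 and 376 UMIs. Its level was therefore graded, and the richest 1% of barcodes (5, 5 and 10 barcodes) held 13.7%, 18.4% and 13.8% of its epithelial UMIs. After every barcode was thinned to 2000 UMIs, which puts barcodes of unequal depth on one footing and leaves out shallower ones, 46.4%, 38.6% and 39.98% were positive.

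Wfdc2 (chromosome 2, 164562413 to 164568510, plus strand), a secreted whey acidic protein of mucosal epithelia, was positive in 178 barcodes of Foxn1Lin female (43.6%, 38.8 to 48.6), 168 of Foxn1Lin male (38.5%, 33.9 to 43.3) and 427 of wild type male (46.6%, 43.3 to 49.9). The median positive barcode held 2 UMIs in each library, against 10, 11 and 15 for Fcgbp. The highest barcodes held 98, 301 and 2431 UMIs. The richest 1% thus held 36.1%, 48.9% and 80.4% of its UMIs, and thinning lowered the positive share to 12.5%, 13.2% and 15.7%. Over summed epithelial barcodes Wfdc2 stood at 130, 143 and 588 CPM (its share of all summed UMIs, scaled in the usual way), and the higher wild type value rested on 9091 of 11306 UMIs in 10 barcodes.

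Both genes were also detected outside the epithelial barcodes. Fibroblast barcodes were Fcgbp-positive in 12.6%, 3.12% and 5.07% and Wfdc2-positive in 2.88%, 0.873% and 5.56%, with a median of 1 UMI, though the highest held 66, 1 and 24 UMIs of Fcgbp. Barcodes with 500 UMIs or fewer that were not called as cells held Wfdc2 at 110, 61.6 and 688 CPM, near or above the level summed over epithelial barcodes in Foxn1Lin female and wild type male. For Fcgbp they held 358, 321 and 436 CPM against 1028, 776 and 863 in epithelial barcodes. At the threshold of the epithelial gate, barcodes with 1 Epcam UMI, just outside, were Fcgbp-positive in 41.9%, 19.1% and 29.2% and those with 2, just inside, in 52.8%, 40.4% and 44.7%.

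**Figure D1:**
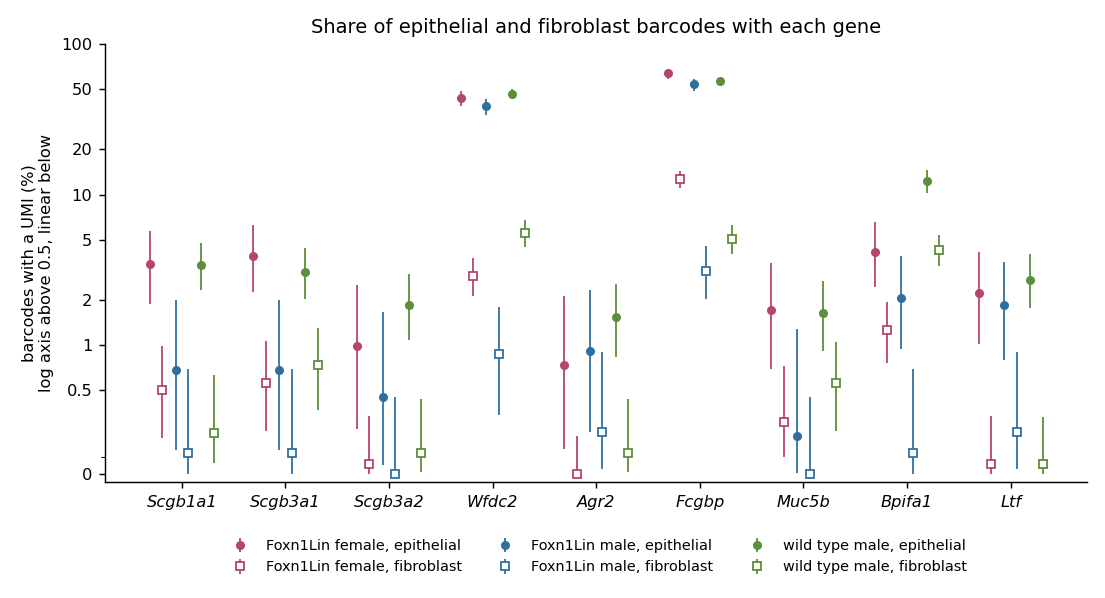
Percent of barcodes with at least 1 UMI of each gene (vertical axis, logarithmic above 0.5% and linear below) in epithelial barcodes (filled circles) and fibroblast barcodes (open squares) of the 3 libraries, with 95% Clopper-Pearson intervals as bars. Fcgbp and Wfdc2 lie between 38.5% and 63.7% in epithelial barcodes, and the other genes lie at or below 12.2%.

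Among the secretoglobins, Scgb1a1 (chromosome 19, 9083636 to 9087958, minus strand), the main product of club cells, was positive in 14 (3.43%), 3 (0.688%) and 31 (3.38%) epithelial barcodes of the 3 libraries. The highest barcodes of Foxn1Lin female held 86, 85, 26, 20, 16 and 10 UMIs, the only barcode above 1 in Foxn1Lin male held 51, and those of wild type male held 367, 250, 112, 78, 73 and 21. The mean per positive barcode was 19, 17.7 and 31.3 UMIs and the median 5, 1 and 2, so the mean was set by a few barcodes in every library. Of its epithelial UMIs, 87.6%, 100% and 96.3% lay in the richest 1% of barcodes. Fibroblast barcodes were positive in 0.5%, 0.125% and 0.247%, with at most 9 UMIs over all of them in a library. Uncalled barcodes held Scgb1a1 at 13.8, 3.65 and 12.8 CPM against 46.4, 7.55 and 50.4 in epithelial barcodes.

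Scgb3a1 (chromosome 11, 49663610 to 49665118, plus strand), a secretoglobin of airway secretory cells, was positive in 16 (3.92%), 3 (0.688%) and 28 (3.05%) barcodes. The highest epithelial barcodes of Foxn1Lin female held 102, 49 and 44 UMIs, the 3 positive ones of Foxn1Lin male 4, 2 and 1, and those of wild type male 2786, 542, 400 and 367. Foxn1Lin male therefore held 7 epithelial UMIs in all, a count whose interval is 0.401 to 2.06 CPM, while wild type male held 219 CPM, of which 99.2% lay in 10 barcodes. Uncalled barcodes held Scgb3a1 at 32.4, 6.86 and 52.1 CPM against 44.5, 0.998 and 219 in epithelial barcodes, so the epithelial level was the lower in Foxn1Lin male. A second secretoglobin of this type, Scgb3a2 (chromosome 18, 43764289 to 43767399, plus strand), was positive in 4 (0.980%), 2 (0.459%) and 17 (1.85%) barcodes. Its highest barcodes held 58, 10 and 314 UMIs, and the richest 1% held 100%, 100% and 98.8% of its UMIs. Uncalled barcodes held Scgb3a2 at 8.52, 0.429 and 14.04 CPM against 10.8, 1.57 and 43.1 in epithelial barcodes.

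Scgb3a1 was also found in endothelial barcodes (at least 2 Pecam1 UMIs, 0 of Epcam and Pdgfra). It was positive in 83 of 1995 (4.16%, 3.33 to 5.13), 55 of 806 (6.82%, 5.18 to 8.79) and 37 of 849 (4.36%, 3.09 to 5.96). In fibroblast barcodes, which were deeper, the shares were 0.563%, 0.125% and 0.742%. Thinned to 2000 UMIs the endothelial shares were 1.93%, 1.68% and 1.74% and the fibroblast shares 0.191%, 0 of 799 and 0.0627%. The highest endothelial barcodes held 27, 27 and 11 UMIs, and endothelial barcodes carried 13.97%, 69% and 1.18% of all Scgb3a1 UMIs in called barcodes. The endothelial share lay above the fibroblast share in 3 of 3 libraries before and after thinning. In CPM, endothelial barcodes stood at 14.3, 18.1 and 7.30 and uncalled barcodes at 32.4, 6.86 and 52.1, so the level exceeded that of RNA outside cells in Foxn1Lin male and lay below it in the other libraries. Other members were detected in endothelial barcodes as well, Fcgbp in 13.0%, 2.61% and 5.54% and Wfdc2 in 3.91%, 0.993% and 5.77%, and no difference between members was tested.

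Of the goblet genes, Muc5b (chromosome 7, 141839070 to 141873084, plus strand), a gel-forming mucin of the airway, was positive in 7 (1.72%), 1 (0.229%) and 15 (1.64%) epithelial barcodes. The highest barcodes of wild type male held 209, 180, 106, 100, 56 and 11 UMIs, whereas the highest of Foxn1Lin female held 19 and the sole positive barcode of Foxn1Lin male held 2. Uncalled barcodes held Muc5b at 7.55, 0.858 and 53.9 CPM, above the 5.58, 0.285 and 35.2 CPM of epithelial barcodes in each library. Agr2 (chromosome 12, 35992907 to 36004087, plus strand), a disulfide isomerase of the endoplasmic reticulum needed for mucin folding, was positive in 3 (0.735%), 4 (0.917%) and 14 (1.53%) barcodes. Its highest barcode held 9, 177 and 160 UMIs. In Foxn1Lin male 2 barcodes, at 177 and 36 UMIs, held most of its 223 UMIs. Uncalled barcodes held Agr2 at 1.51, 3.22 and 13.7 CPM against 3.14, 31.8 and 16.9 in epithelial barcodes.

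Bpifa1 (chromosome 2, 154142880 to 154149219, plus strand), an antimicrobial protein of the upper airway, was positive in 17 (4.17%), 9 (2.06%) and 112 (12.2%) barcodes. The highest barcodes of Foxn1Lin female held 36 and 10 UMIs and those of Foxn1Lin male 74 and 45. The median positive barcode of wild type male held 1 UMI while the highest held 2760, 1981, 1599, 517, 373 and 233, and the richest 1% of barcodes held 94.2% of its 8708 UMIs. Its low counts in that library cannot be told apart from RNA outside cells, since 4.26% of fibroblast barcodes were positive and uncalled barcodes held 351 CPM against 453 in epithelial barcodes. The uncalled level was 30.8 CPM against 13.6 in Foxn1Lin female and 16.5 against 19.5 in Foxn1Lin male. Ltf (chromosome 9, 111019271 to 111042767, plus strand), the iron-binding lactoferrin, was positive in 9 (2.21%), 8 (1.83%) and 25 (2.73%) barcodes. Its highest barcodes held 51 and 44 UMIs for Foxn1Lin female, 14 and 12 for Foxn1Lin male and 81 and 26 for wild type male, and fibroblast barcodes held at most 3 UMIs in a library. Uncalled barcodes held Ltf at 5.83, 7.51 and 12.99 CPM against 19.3, 6.70 and 10.9 in epithelial barcodes, so the epithelial level was the higher in Foxn1Lin female alone.

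**Figure D2:**
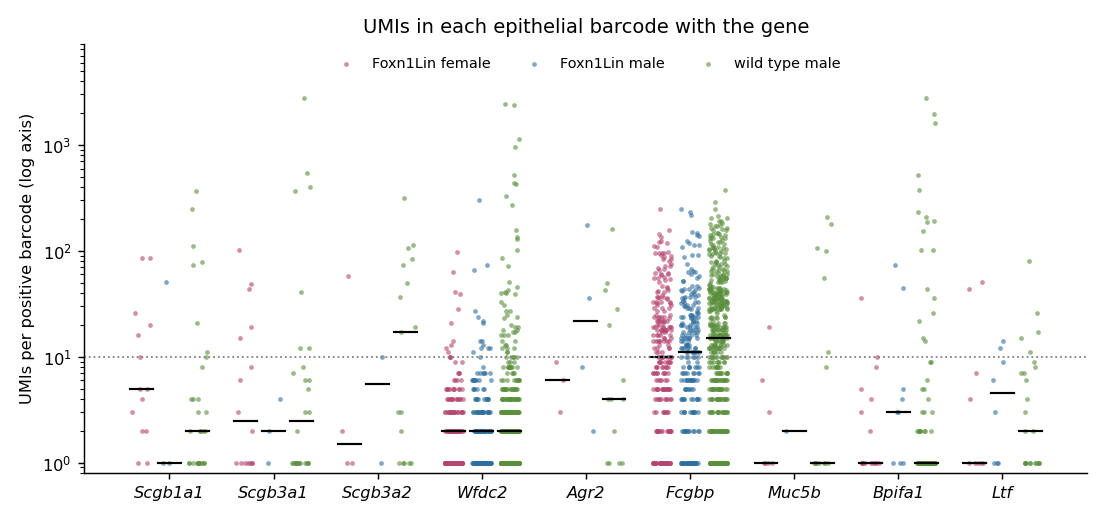
UMIs of each gene in every epithelial barcode that had at least 1 (points, logarithmic axis), by library; black lines are medians over positive barcodes and the dotted line marks 10 UMIs. Fcgbp is graded with medians of 10, 11 and 15, while the other genes have medians between 1 and 22 with isolated points reaching 2786.

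The epithelial gate did not hold all high barcodes. Of all Ltf UMIs in called barcodes of wild type male, 26.2% lay in epithelial barcodes and 69.8% in barcodes with at least 2 Epcam UMIs that also had a Pecam1 or Pdgfra UMI, where 1 barcode held 519. For Bpifa1 in the same library the shares were 55.7% and 42.7%, and 1 excluded barcode held 5162 UMIs, more than any inside the gate. In Foxn1Lin female, 53.8% of Scgb3a1 UMIs lay in such excluded barcodes, 546 of them in 1 barcode, against 22.5% in the gate. Whether the excluded barcodes hold 1 cell or more was not tested.

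**Figure D3:**
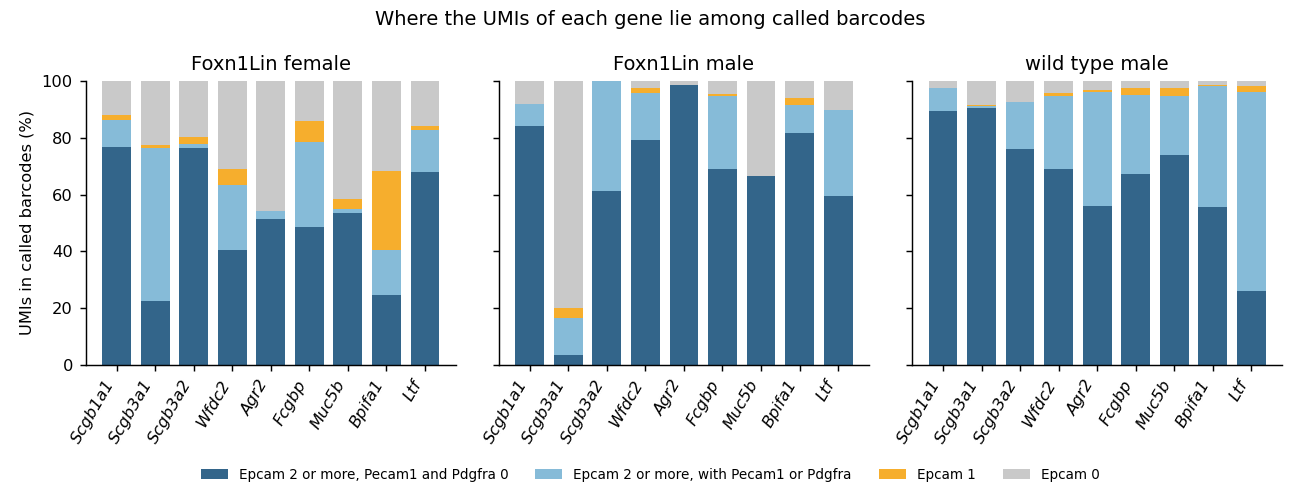
Percent of each gene's UMIs over called barcodes (vertical axis) that lie in epithelial barcodes, in barcodes with at least 2 Epcam UMIs and a Pecam1 or Pdgfra UMI, in barcodes with 1 Epcam UMI and in barcodes with 0. Epithelial barcodes hold from 3.5% (Scgb3a1, Foxn1Lin male) to 98.7% (Agr2, Foxn1Lin male).

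Co-detection was first read over all epithelial barcodes. Fcgbp and Wfdc2, the widespread members, differed in their overlap with depth. Thinned to 2000 UMIs, Fcgbp was found in 42.9%, 38.2% and 43.9% of Wfdc2-positive barcodes and in 46.9%, 38.7% and 39.3% of the others. The thinned difference had no common direction over the 3 libraries, whereas without thinning, where Wfdc2-positive barcodes were deeper, Fcgbp was found in 65.7%, 62.5% and 58.1% against 62.2%, 48.5% and 55.1%. Muc5b was found in 2 of 3 Agr2-positive barcodes of Foxn1Lin female (against 1.23% of the rest), in 1 of 4 of Foxn1Lin male (against 0%) and in 7 of 14 of wild type male (50%, 23.0 to 77.0, against 0.886%). Scgb3a1-positive barcodes of wild type male held Muc5b in 8 of 28 (28.6%, against 0.787% of the rest), Scgb3a2 in 7 of 28 (25%, against 1.12%) and Wfdc2 in 24 of 28 (85.7%, against 45.3%). These positive barcodes were deeper, with a median of 26661 UMIs against 16411. In the lineage trace libraries Wfdc2 was not more frequent, at 6 of 16 (37.5%, against 43.9%) in the female and 1 of 3 (33.3%, against 38.6%) in the male library, while Muc5b was found in 2 of 16 (12.5%, against 1.28%) and 0 of 3 (against 0.231%) Scgb3a1-positive barcodes. Thinned to 2000 UMIs, Muc5b was found in 0 of 6, 0 of 2 and 5 of 9 Scgb3a1-positive barcodes, the last against 0.341% of the rest. Among Agr2-positive barcodes it was found in 1 of 3, 0 of 4 and 6 of 6, the last against 0.227% of the rest. Scgb1a1 and Scgb3a1 were found together in 1, 0 and 3 barcodes, of 14, 3 and 31 with Scgb1a1.

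High barcodes were then listed. Those with at least 10 UMIs of a member other than Fcgbp and Wfdc2 numbered 17, 8 and 34 (4.17%, 1.83% and 3.71% of epithelial barcodes). The minimum of 10 was set after the counts were seen, and the list is a description without a test. Of the 59 barcodes, 47 passed 10 UMIs for 1 of the 7 genes and 12 for 2 or more. All 12 were in wild type male, which also had the most epithelial barcodes and the greatest depth in them.

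The 6 barcodes with the most genes at 10 UMIs or more each held at least 429 UMIs of Wfdc2 and 11 of Muc5b, and 0 of Scgb1a1. In wild type male 1 barcode of 54297 UMIs held 2760 UMIs of Bpifa1, 2431 of Wfdc2, 542 of Scgb3a1, 314 of Scgb3a2, 100 of Muc5b and 28 of Agr2, with 0 of Scgb1a1 and Ltf. Another of 27410 UMIs held 2786 of Scgb3a1, 1149 of Wfdc2, 180 of Muc5b, 84 of Scgb3a2 and 50 of Agr2, and 0 of Bpifa1, so that 15.7% of all its UMIs came from the 9 members. Both also held Spdef, the goblet cell transcription factor, with 2 and 1 UMIs, and Reg3g, a secreted antimicrobial lectin, with 1766 and 1027. Muc5b reached 10 UMIs in 7 barcodes, and Wfdc2 reached 10 in all 7, Scgb3a1 was detected in 6, Agr2 in 6 and Spdef in 4. Of the 47 barcodes high in 1 of the 7 genes, Wfdc2 also reached 10 UMIs in 14, and 1 of them held 160 UMIs of Agr2, 144 of Fcgbp and 101 of Wfdc2.

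Scgb1a1 reached 10 UMIs in 15 barcodes, was the only one of the 7 genes to do so in 12, and was accompanied by a Scgb3a1 UMI in 1. Scgb3a1 reached 10 in 12 barcodes, and 0 of these had a Scgb1a1 UMI. Both genes are rare, so few shared barcodes can be seen at these numbers, and over all epithelial barcodes Scgb3a1 was detected in 7.14%, 0% and 9.68% of Scgb1a1-positive barcodes against 3.81%, 0.693% and 2.82% of the rest. Of the 15 Scgb1a1 barcodes 9 had an Aire UMI and 2 had at least 10 UMIs of Wfdc2. Over the list, Aire was detected in 22 of the 47 barcodes high in 1 gene and in 2 of the 12 high in more, although the latter were deeper, with a median of 28488.5 against 19585 UMIs. No share of Aire-positive barcodes over all epithelial barcodes is given here, so a link with Aire cannot be read from these counts.

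**Figure D4:**
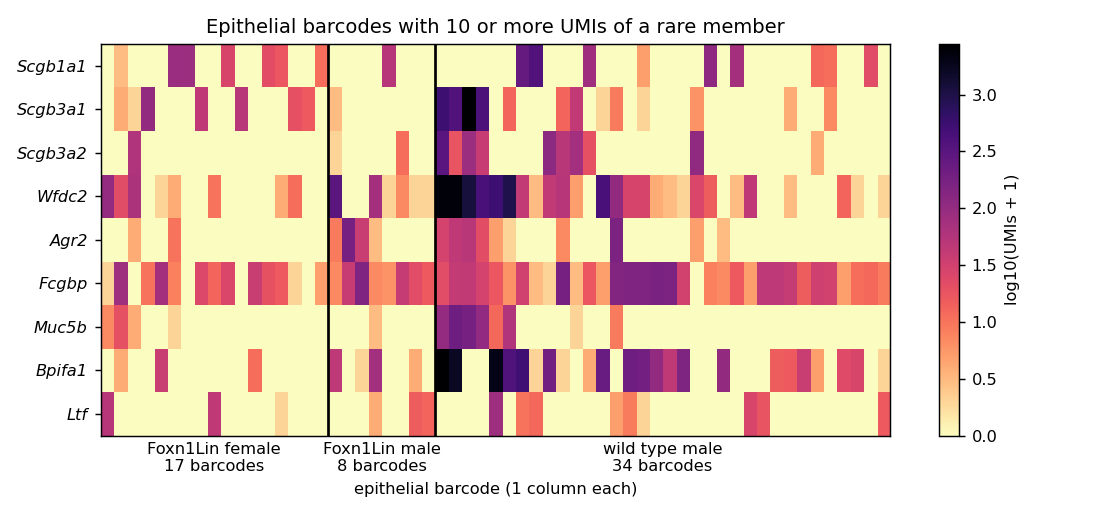
The 59 epithelial barcodes with at least 10 UMIs of a member other than Fcgbp and Wfdc2 (columns, by library) and the 9 genes (rows); color is log10(UMIs + 1). The leftmost columns of wild type male hold several abundant genes together, whereas columns of the lineage trace libraries each hold 1 gene at 10 or more UMIs besides Fcgbp and Wfdc2.

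The lineage reporter was found in the high barcodes. Reporter UMIs were counted over 8 added transgene features together. These include tdTomato and Cre, so a reporter-positive barcode need not hold tdTomato. In the lineage trace libraries 25 of 25 high barcodes had at least 1 reporter UMI, with up to 114 in a barcode. Of all epithelial barcodes, 88.2% (84.7 to 91.2) and 92.7% (89.8 to 94.9) were reporter-positive. The high barcodes were deeper, with medians of 14694 and 30104.5 UMIs against 11138 and 12669.5, and the part of depth in this difference was not tested. Fibroblast barcodes were reporter-positive in 15.1% and 13.5% and the shallower endothelial barcodes in 21.2% and 29.4%. The wild type library, which carries no reporter, held none of it. At 2000 UMIs, barcodes with 2 or more members detected were reporter-positive in 22 of 37 (59.5%, 42.1 to 75.2) for Foxn1Lin female and 22 of 25 (88%, 68.8 to 97.5) for Foxn1Lin male. The remaining epithelial barcodes were positive in 65.9% (60.7 to 70.8) and 79.8% (75.5 to 83.7), so the direction differed between the libraries, and in each the share of the remaining barcodes lay within the wider interval of those with 2 or more members.

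Barcodes with 2 or more of the 9 members detected at 2000 UMIs made up 37 of the 392 deep enough (9.44%, 6.73 to 12.8), 25 of 417 (6.00%, 3.92 to 8.72) and 91 of 888 (10.2%, 8.33 to 12.4). In 19, 19 and 42 of them the detected members were Fcgbp and Wfdc2 alone. Their raw counts were summed per library and compared with the sum of the other epithelial barcodes, with the 3 libraries as replicates and as a block (edgeR quasi-likelihood test, Benjamini-Hochberg adjustment). The 9 members made the groups and were not tested. Of 14130 other genes 4 were higher and 3 lower at an adjusted p under 0.05, which is 0.0283% and 0.0212% of those tested (0.0495% together), while 966 and 881 genes (6.84% and 6.23%) had an unadjusted p under 0.05. The 4 higher genes were Cxcl5, Fabp3, Cpm and Cd52, and the 3 lower were Chga, Ly6c2 and Igkc.

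Cd52, a small surface glycoprotein of lymphocytes and of some epithelia, did not rest on single barcodes, since the highest held at most 22.0% of its UMIs in either group of a library. It stood at 1077, 760 and 578 CPM in barcodes with 2 or more members and at 375, 284 and 234 in the others. It was thus higher in all 3 libraries, as were 15% of all genes tested. The log2 fold change was 1.44 ± 0.12 (SE) with an adjusted p of 0.0389. It was detected in 67.6%, 44% and 54.9% of barcodes with 2 or more members, and in 40%, 21.7% and 26.3% of the others. Of 10 hematopoietic markers Cd52 alone passed. At an unadjusted p under 0.05, 4 were higher and 0 lower (6.84% and 6.23% of all genes tested). In all 3 libraries 4 were higher (15% of all genes tested). Ptprc and Fcer1g were higher in 1 library only, and Cd79a and Lck had log2 fold changes of -0.13 and -0.24. Laptm5, a lysosomal membrane protein of blood cells, stood at 213, 243 and 242 CPM against 129, 85.8 and 106 (adjusted p = 0.118). The list's summed level stood at 1537, 1169 and 1039 CPM against 741, 501 and 428, of which Cd52 itself made up the 1077, 760 and 578 against 375, 284 and 234 given above. With barcodes holding a UMI of Ptprc (CD45) left out, the log2 fold change of Cd52 was 1.497 (adjusted p = 0.0385), and with Scrublet doublets left out 1.41 (adjusted p = 0.0677). With Fcgbp left out of the defining members it was 0.44 (adjusted p = 0.862).

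Cpm, a membrane carboxypeptidase found in lung, stood at 76.9, 128 and 79.0 CPM against 10.7, 11.8 and 8.19, with a log2 fold change of 3.22 ± 0.20 and an adjusted p of 0.0150. It was detected in 10 of 37, 5 of 25 and 16 of 91 barcodes. In Foxn1Lin male 63 of its 69 UMIs came from 1 barcode. Without the 59 high barcodes its log2 fold change was 2.13 with an adjusted p of 0.243.

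The other called genes rested on few barcodes. Cxcl5, a neutrophil chemokine, stood at 159, 13.0 and 97.6 CPM against 3.69, 0.310 and 0.936 (log2 fold change 6.02 ± 0.36, adjusted p = 0.0150), but in Foxn1Lin female all 91 UMIs came from 1 barcode and in wild type male 160 of 205 did. Fabp3, a fatty acid-binding protein, stood at 36.7, 173 and 15.2 against 3.11, 21.8 and 1.29 (log2 fold change 3.32 ± 0.25, adjusted p = 0.0314), and its 93 UMIs of Foxn1Lin male were in 1 barcode. Neither gene was spread over the barcodes with 2 or more members, since at most 8.79% of them in a library had a UMI of it.

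The 3 lower genes had a large part of their UMIs in 1 barcode of the larger group in each library. Igkc, the immunoglobulin kappa constant region, stood at 138, 35.3 and 32.9 CPM against 10469, 4010 and 2079 (log2 fold change -6.27 ± 0.20, adjusted p = 0.00180), and the highest barcode held 25.9%, 99.1% and 39.8% of the larger group's UMIs. Its share of positive barcodes was in fact no lower with 2 or more members, at 70.3%, 36% and 41.8% against 69.3%, 19.6% and 30.5%. Chga, a chromogranin of endocrine cells, stood at 21.0, 31.6 and 19.5 against 993, 684 and 454 (log2 fold change -4.77 ± 0.24, adjusted p = 0.0111), and 1 barcode held 78.8%, 54.0% and 96.4% of the larger group's UMIs. Chga was detected in 24.3%, 24% and 16.5% of barcodes with 2 or more members and in 23.7%, 8.67% and 8.03% of the others, opposite in direction to its summed level. Ly6c2, a Ly6 surface protein of myeloid and lymphoid cells, stood at 1.75, 0 and 2.38 against 62.8, 12.2 and 80.0 (log2 fold change -5.11 ± 0.36, adjusted p = 0.0262), with 36.5% to 62.0% of the larger group's UMIs in 1 barcode. Without barcodes holding a UMI of Gcm2, the parathyroid factor, the log2 fold change of Chga was -1.65 with an adjusted p of 0.432.

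**Figure D5:**
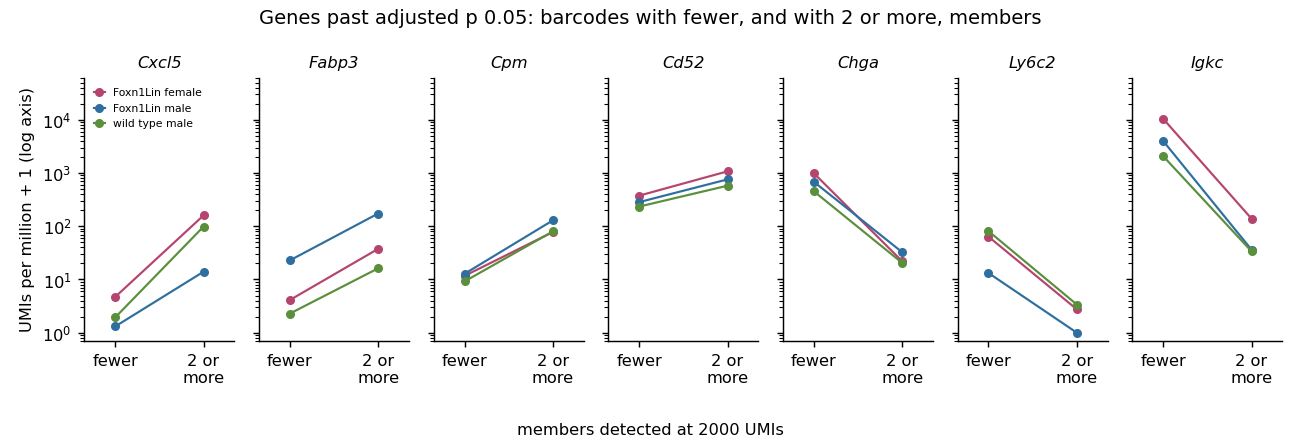
CPM plus 1 (logarithmic axis) of the 7 genes past an adjusted p of 0.05, in summed epithelial barcodes with fewer than 2 members and with 2 or more, 1 line per library. Cxcl5, Fabp3, Cpm and Cd52 rise and Chga, Ly6c2 and Igkc fall in each of the 3 libraries.

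The goblet programme list held 19 tested genes, and 0 passed the adjusted threshold in edgeR. At an unadjusted p under 0.05, 12 were higher and 1 lower, and 9 were higher in all 3 libraries, a pattern shown by 15% of all genes tested (23.4% were lower in all 3). The list's median log2 fold change was 1.43, against -0.03 over all genes. Spdef, its factor, stood at 1.75, 5.57 and 9.52 CPM against 1.75, 1.24 and 3.22 (log2 fold change 1.43 ± 0.63, adjusted p = 0.419). In barcodes with 3 or more members the log2 fold change of Spdef was 3.74 (adjusted p = 0.00120), but that group held 5, 3 and 26 barcodes. In that fit 143 genes were higher and 185 lower, against 4 and 3 in the main one. Muc1, a membrane mucin, stood at 117, 92.9 and 66.7 against 50.4, 39.2 and 26.5 (adjusted p = 0.0941), and Pigr, the receptor that carries immunoglobulin A across epithelia, at 173, 24.2 and 253 against 37.3, 8.37 and 40.2 (adjusted p = 0.0779). Muc2, the gel-forming mucin of the gut, stood at 3.50, 14.9 and 11.4 against 0.583, 0.465 and 0.234 (adjusted p = 0.135). Muc2 and Foxa3 passed the low-count filter only through the barcodes with 2 or more members, where they were higher. Both count in the 12 and in the median, which are therefore no support for the list. Agr3, a relative of Agr2, went the other way in all 3 libraries, at 13.99, 0 and 1.43 against 17.1, 24.0 and 26.4 (adjusted p = 0.339).

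The airway secretory list was alike in its counts. Of its 19 tested genes 0 passed, 11 were higher and 1 lower at an unadjusted p under 0.05, 11 were higher in all 3 libraries, and the median log2 fold change was 1.39. Cyp2f2, a cytochrome of club cells, stood at 59.4, 22.3 and 394 CPM against 29.0, 24.8 and 50.4, so it was higher in 2 of 3 libraries (log2 fold change 1.54 ± 0.60, adjusted p = 0.367). With 3 or more members, again 5, 3 and 26 barcodes, its log2 fold change was 3.48 (adjusted p = 2.79e-07). Reg3g stood at 455, 957 and 3211 against 324, 224 and 209 (adjusted p = 0.258), and Gsta3, a glutathione transferase, at 21.0, 14.9 and 28.1 against 24.1, 105 and 89.4 (adjusted p = 0.260).

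In the other programme lists 0 genes passed either. Of 11 ciliated cell genes 0 were higher and 1 lower at an unadjusted p under 0.05, with a median log2 fold change of -0.35, and Foxj1, the factor of ciliated cells, stood at 1.75, 11.1 and 14.8 CPM against 4.67, 7.44 and 7.13 (adjusted p = 0.7504). Of 21 genes of folding and secretion in the endoplasmic reticulum 1 was higher and 0 lower, with a median of 0.09, and Xbp1, the factor of the secretory pathway, had a log2 fold change of -0.28 ± 0.22 (adjusted p = 0.623). Of 17 epithelial lineage factors 2 were higher and 1 lower, and Foxa1 stood at 36.7, 9.29 and 57.6 against 7.39, 13.3 and 9.01 (log2 fold change 1.81 ± 0.63, adjusted p = 0.317). With 3 or more members, again 5, 3 and 26 barcodes, the log2 fold change of Foxa1 was 2.61 (adjusted p = 0.00949). Of 15 antimicrobial and mucosal defence genes 9 were higher and 0 lower, with a median of 0.69. Among them Saa1, an acute-phase apolipoprotein, stood at 993, 92.9 and 192 against 153, 25.6 and 31.1 (adjusted p = 0.0555), and Lcn2, lipocalin 2, had a log2 fold change of 0.33 ± 0.20 (adjusted p = 0.549).

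Markers of TEC subsets and of other cells were counted in the same fit. The 4 mTEC2 markers Aire, Fezf2, Cd80 and Ubd were each higher in all 3 libraries with 2 or more members, with a median log2 fold change of 0.70 and adjusted p between 0.127 and 0.261, so 0 passed. Their summed level was 3074, 2179 and 2374 CPM against 1603, 1416 and 1332. Of 6 basal TEC markers 0 passed and 2 were higher in all 3 libraries, with a median of 1.59. Their summed level was 1526, 414 and 2435 CPM against 477, 314 and 255. Spink5, which the paper also lists for goblet TEC, stood at 640, 7.43 and 1260 against 28.2, 44.6 and 89.2. Of 5 M-cell TEC markers 0 passed and 0 were higher in all 3 libraries, with 1178, 236 and 1622 against 251, 487 and 385. Gp2 of that list stood at 411, 1.86 and 1191 against 44.7, 25.3 and 32.8. Spink5 and Gp2 were thus lower in Foxn1Lin male. Of the tuft TEC markers 0 of 6 passed and the median was -0.59, and of the cortical TEC markers 0 of 5 passed with a median of 0.01. The summed fibroblast list stood at 511, 89.2 and 94.3 CPM against 550, 267 and 257, the endothelial list at 129, 44.6 and 55.7 against 77.4, 34.6 and 37.2, and the mesothelial list at 283, 344 and 438 against 200, 101 and 73.9, the last mostly Msln (231, 312 and 389 against 111, 86.9 and 52.1). Pdgfra and Pecam1 were at 0 by construction, and Lrrn4 of the mesothelial list was at 0 in the barcodes with 2 or more members of all 3 libraries. The part of these cells in the results was not tested.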

How the data were processed

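The deposited matrices hold raw UMI counts per gene and barcode, for called and for all barcodes, which the authors made with Cell Ranger (7.0.1 in the header of the called matrices, 7.01 in the submitters' processing notes) on mm10 with reporter sequences added. They were used as deposited. The members and gene lists were chosen with earlier results of these data known. Gates needed at least 2 UMIs of the defining marker. Barcodes were thinned to 2000 UMIs with a fixed seed in numpy 2.4.6. Shares have Clopper-Pearson and counts exact Poisson intervals (scipy 1.17.1), and a count of 0 allows 3. CPM are shares of summed counts. Sums per library and group were tested with edgeR 4.0.16 (filterByExpr, TMM, library as a block, quasi-likelihood, threshold 0.05), and with DESeq2 1.42.0 as an alternative. The low-count filter lets a gene enter through 1 group alone, so some genes were tested only because they were high in that group. The libraries had 53366016, 33386621 and 61258534 UMIs in called barcodes (Foxn1Lin female, Foxn1Lin male, wild type male), and barcodes under 2000 UMIs (16, 19 and 29 epithelial) were left out of thinned values. Doublets stayed in the main values: Scrublet (scanpy 1.11.5) marked 0, 15 and 1 barcodes on its own, so the 3.9% with the highest scores were removed as an alternative, 13, 37 and 44 of them epithelial. The test was tried on simulated data. Named genes were the members, up to 15 higher and 10 lower genes by fold past the threshold that moved alike in every library, and factors or main products of the lists. Muc1, Muc2, Foxa3, Pigr, Reg3g, Agr3, Gsta3, Laptm5, Fcer1g, Cd79a, Lck, Saa1, Spink5, Gp2, Pth, Msln and Lrrn4 were named after their values were seen. Positions are from GENCODE vM21. The deposited library summaries were not used.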

Additional observations from a re-analysis of the deposited data

How the results depend on the processing

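The count of 4 higher and 3 lower genes depended on the settings. It was 3 and 3 with at least 1 Epcam UMI or without Scrublet doublets, 4 and 3 with at least 4 Epcam UMIs, the cell quality filter or RLE size factors, and 4 and 4 with Ptprc at 0. It was 1 and 1 without the library block, 21 and 18 with Wfdc2 left out of the defining members, 63 and 22 without thinning, 143 and 185 with 3 or more members, 154 and 158 without the low-count filter, and 259 and 107 with DESeq2. Leaving out 1 library gave 1 to 46 higher and 2 to 14 lower genes, 46 and 14 without Foxn1Lin male. Alternatives chosen after seeing the data gave 2 and 4 with Pecam1 and Pdgfra allowed, 4 and 2 with Gcm2 at 0, 190 and 243 with Fcgbp left out of the defining members, and 6 and 8 without the 59 high barcodes. The cause was not tested, and the 7 genes were all called again in 4 of the other 19 fits. With 3 or more members the group held 5, 3 and 26 barcodes.

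The 7 called genes kept their direction in every alternative that gave a value, but the sizes did not hold: Chga was -0.071 without thinning (adjusted p = 0.990), and with Fcgbp left out of the defining members Fabp3 was 0.23 (adjusted p = 0.983) and Cd52 0.44 (adjusted p = 0.862). Cd52 and Fabp3 each missed the threshold in 9 of 19. Spdef passed it in 2 of the 14 alternatives that gave it a value, Cyp2f2 in 2 of 19 and Foxa1 in 3 of 19. In each case these were the fits with 3 or more members and with Fcgbp left out, and for Foxa1 also the fit without Foxn1Lin male. The direction of Lcn2 turned (-0.96) without Wfdc2 among the members, and that of Foxj1 with 3 or more members (-0.29), without Fcgbp (-0.55) and on leaving out 1 library at a time (-0.075 to 0.85, -0.075 without wild type male).

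The share of barcodes with 2 or more members was 35.8%, 25.7% and 33.8% without thinning (Foxn1Lin female, Foxn1Lin male, wild type male), and 1.28%, 0.719% and 2.93% had 3 or more. Reporter-positive shares without thinning were 93.2% and 98.2% with 2 or more members and 85.5% and 90.7% with fewer. Thinned, with at least 1 Epcam UMI, they were 57.8% and 73.7% with fewer members, against 65.9% and 79.8% with at least 2 Epcam UMIs. The share in the richest 1% moved outside its counting interval for 9 of 27 values with at least 4 Epcam UMIs, 8 of 27 with Pecam1 and Pdgfra allowed, 8 of 26 without Scrublet doublets, 5 of 27 with Ptprc at 0 and 3 of 27 with at least 1 Epcam UMI. Positive shares moved for 18 of 27 on thinning and 14 of 27 when 2 UMIs were required.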
